A study of Mus musculus with 32 samples.

Results

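The Hox genes of clusters A to D were followed by ATAC-seq, which counts where a transposase can cut open chromatin, in blood-forming cells of the mouse. The members were 38 Hox genes listed by name. No measured value was used to list them, but they were chosen with earlier results of these data known. A region was counted to a gene when its midpoint lay inside the gene's span, or outside all spans but nearest to that gene and within 50 kb. This gave 76 of the 99037 regions of the developmental count table, for 32 of the 38 genes: 21 regions at HoxA, 24 at HoxB, 16 at HoxC and 15 at HoxD. Hoxa2, Hoxa4, Hoxa6, Hoxb7, Hoxd11 and Hoxd12 received no region. A region at chr6:52190939-52192546 overlaps Hoxa4, but its midpoint lies outside that short span and inside the long span of Hoxa3, so it was counted to Hoxa3. All 76 regions passed the filter on low counts. In the count table of the cultured cells, 112 of 147852 regions fell to 36 of the 38 genes (none to Hoxa6 or Hoxd12), and 110 of them passed the filter.

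All libraries were made from LSK cells, a lineage-depleted fraction with the markers Sca-1 and Kit that is rich in stem and progenitor cells of the blood, taken from C57BL/6 mice. No mutation or drug is named for any group. The developmental groups were E12.5 PL, a tissue name that the labels do not spell out, E12.5 FL and E16.5 FL (read here as fetal liver), and Perinatal BM, 1w BM, 3w BM, 4w BM, 6w BM and 8w BM (read as bone marrow, with age in weeks), each with 3 libraries except 3w BM with 2. In a culture arm, cells of E12.5 FL were kept for 2 h: the basic medium was called SHI, and co-SHI had been conditioned beforehand on hepatocytes of E16.5, with 3 libraries of each. Neither pooling of animals nor separate litters is stated, so the replicate spread may be technical. For 8w BM 3 the stage label reads E12.5, against its title; the title decided its group.

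Hox genes encode homeodomain transcription factors that give cells their position along the body axis. Within a cluster, low paralog numbers lie at one end and act in the anterior body, and high numbers lie at the other end and act in the trunk, limbs and genital tract. Hox proteins bind DNA together with Pbx and Meis cofactors, and trithorax and Polycomb complexes keep the clusters active or silent. In blood-forming cells, Hoxa9, Hoxa10, Hoxb4 and other genes of clusters A and B are known for their part in self-renewal. Accessibility is not expression, and no RNA was measured in these libraries.

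The promoters of 3 members are shown because a region that differed between groups lies over each of them. They are the members with the smallest p over the 9 groups among those with an entry in the RefSeq promoter table (build GRCm38.p6, 250 bases before to 50 after the gene's start). They are printed 5′ to 3′ along the gene's strand, with each CG dinucleotide in capitals.
Hoxa13 (chr6:52260831-52261130, minus strand): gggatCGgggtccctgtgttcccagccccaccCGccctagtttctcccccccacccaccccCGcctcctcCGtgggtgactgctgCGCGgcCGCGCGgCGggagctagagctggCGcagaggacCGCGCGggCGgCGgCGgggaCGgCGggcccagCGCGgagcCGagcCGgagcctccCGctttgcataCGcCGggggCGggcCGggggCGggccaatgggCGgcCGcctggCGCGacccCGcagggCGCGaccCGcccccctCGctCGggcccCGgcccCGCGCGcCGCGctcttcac
Hoxa5 (chr6:52204538-52204837, minus strand): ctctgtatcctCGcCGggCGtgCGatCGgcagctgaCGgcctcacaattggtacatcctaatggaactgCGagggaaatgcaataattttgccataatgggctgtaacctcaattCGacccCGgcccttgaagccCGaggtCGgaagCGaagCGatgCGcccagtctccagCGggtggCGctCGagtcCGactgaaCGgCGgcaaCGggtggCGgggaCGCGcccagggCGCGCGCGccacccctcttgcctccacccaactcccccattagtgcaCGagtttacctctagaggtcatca
Hoxd10 (chr2:74691641-74691940, plus strand): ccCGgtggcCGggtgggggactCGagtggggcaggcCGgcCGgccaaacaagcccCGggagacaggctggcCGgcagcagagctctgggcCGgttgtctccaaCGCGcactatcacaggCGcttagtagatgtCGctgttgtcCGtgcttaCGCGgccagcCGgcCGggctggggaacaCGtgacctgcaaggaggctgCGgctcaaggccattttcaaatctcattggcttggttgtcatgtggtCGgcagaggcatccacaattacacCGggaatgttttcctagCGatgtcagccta
The Hoxa13 window holds 45 CG dinucleotides and 81.0% G and C, the most CG among the 24 entries of members, which came from 22 of the 38 genes. Hoxa5 has 29 and Hoxd10 has 22. The median over the Hox entries was 14.5 CG (4 to 45), and the median over all 32851 promoters was 7. Neither TGATTNAT, a letter string bound by Hox with Pbx, nor TGACAG, one bound by Meis, occurs on either strand of these 3 windows. TGATTNAT was found in 2 of the 24 Hox entries (8.33%) and in 3.22% of all promoters, and TGACAG in 2 of 24 (8.33%) and in 19.2%. The regions measured here cover all 300 bases of the Hoxa13 and Hoxd10 windows and 277 bases of the Hoxa5 window.

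The developmental libraries held 2845113 to 10167340 reads in regions and the cultured ones 7512258 to 20092146. Levels are CPM, counts scaled to a common depth by TMM, so a level near 1 CPM rests on few reads. The E12.5 PL libraries stood apart: the summed level of 10 stem and progenitor marker genes ran from 809 to 887 CPM, below the 1259 to 1319 CPM of E12.5 FL, while that of 7 endothelial markers ran from 686 to 958 CPM, above 474 to 513 CPM. Of the endothelial markers, 7 of 7 passed the test as higher in E12.5 PL, as 23.5% of all genes did. Of the stem and progenitor markers, 6 passed as higher in E12.5 FL and 2 as lower (25.9% and 23.5% of all genes). The sum of 8 trophoblast markers ran from 291 to 424 CPM in E12.5 PL and from 214 to 229 CPM in E12.5 FL. Of these, 4 passed as higher in E12.5 PL and 0 as lower. Libraries also differed in how far reads concentrated in strong regions. The top quartile of regions by mean level took 59.8% to 68.6% of the reads in the E12.5 PL and fetal liver libraries and 69.2% to 74.7% in the bone marrow libraries.

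**Figure D1:**
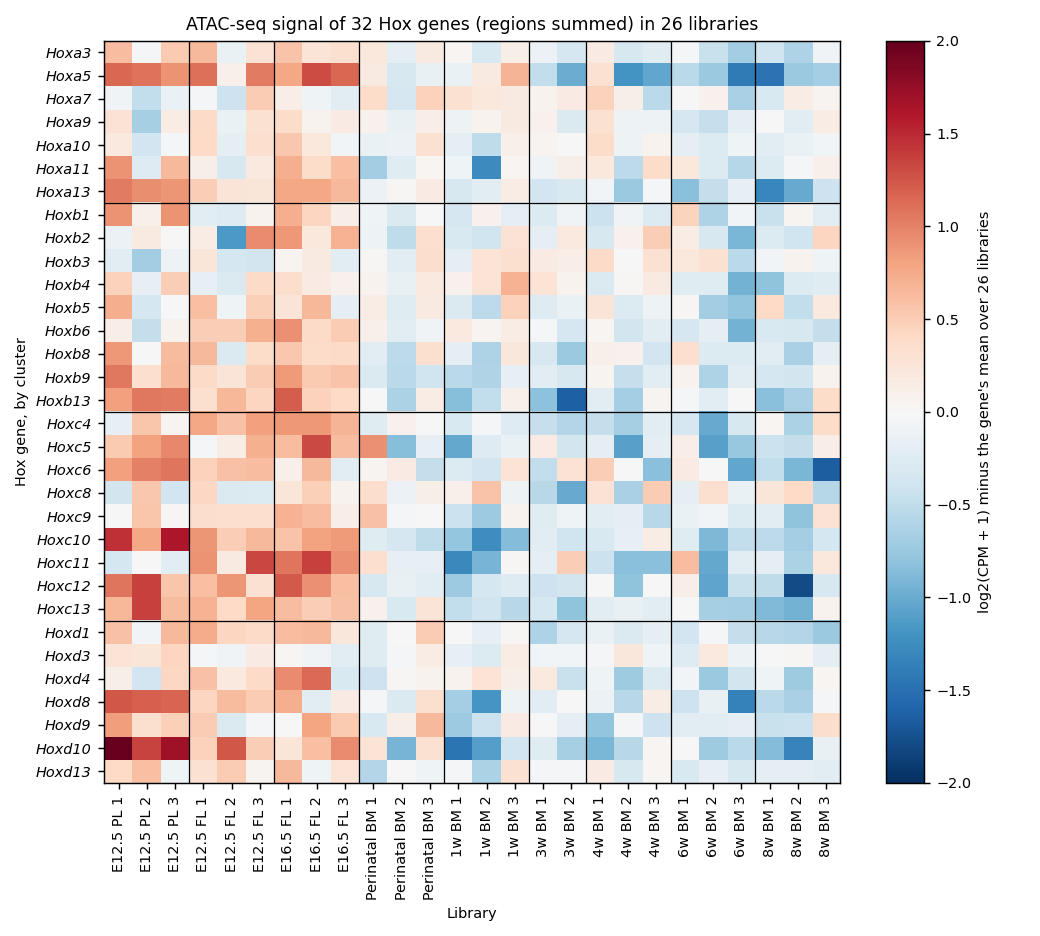
Heat map of 32 Hox genes (rows, regions summed per gene, ordered by cluster) in 26 developmental libraries (columns). Colour gives log2(CPM + 1) minus the gene's mean over the libraries; the E12.5 PL and fetal liver columns are mostly above the mean (red) and the bone marrow columns mostly below it (blue), with Hoxa7, Hoxa9, Hoxa10, Hoxb3 and Hoxd3 near it throughout.

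Over all 9 developmental groups, 22 of 32 Hox genes and 42 of 76 Hox regions passed edgeR's quasi-likelihood test at an adjusted p of 0.05. Among all genes tested 71.7% passed, and among all regions 64.4%, so the Hox shares (68.8% and 55.3%) were no higher than the background. Without the E12.5 PL libraries 17 Hox genes and 26 Hox regions passed, and no share of all genes or regions is given for that setting. The smallest p belonged to Hoxc10, a gene of the trunk and hindlimb (adjusted p = 7.1e-14), followed by Hoxa13 (2.3e-09), Hoxa5 (2.9e-08), Hoxb9 (2.6e-07), Hoxd10 (3.3e-07), Hoxd8 (8.9e-07), Hoxc13 (1.4e-06) and Hoxc4 (2.2e-06). Hoxc12, Hoxb6, Hoxb13, Hoxa3, Hoxd1, Hoxb1, Hoxc11, Hoxc6, Hoxc5, Hoxb4, Hoxb8, Hoxc9, Hoxd4 and Hoxa11 also passed, with adjusted p from 1.8e-05 to 0.032. Hoxa7, Hoxa9, Hoxa10, Hoxb2, Hoxb3, Hoxb5, Hoxc8, Hoxd3, Hoxd9 and Hoxd13 did not pass.

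The strongest Hox region was a 589 bp stretch over one end of the Hoxc10 span, at chr15:102966518-102967106. Its mean level over the 26 libraries was 33.6 CPM, which 6.25% of all regions exceeded. It measured 90.4, 57.8 and 98.1 CPM in E12.5 PL, 50.3, 37.0 and 42.4 in E12.5 FL, and 36.6, 47.3 and 47.7 in E16.5 FL. In marrow it measured 23.8, 23.0 and 19.6 CPM in Perinatal BM, 17.6, 11.8 and 16.1 in 1w BM, and 20.5, 18.8 and 22.5 in 8w BM. All libraries of E12.5 PL lay above all of E12.5 FL, and all fetal liver libraries lay above those of these 3 marrow groups. It was also the only Hox region with a called peak in every one of the 26 libraries.

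At E12.5, a smaller share of Hox genes than of all genes passed between E12.5 PL and E12.5 FL. Of 32 Hox genes, 5 were lower in E12.5 FL and 3 were higher, that is 15.6% and 9.38%, where 23.5% and 25.9% of all genes tested were called lower and higher (49.5% in either direction). Under offsets that level the fold changes along mean signal (cyclic loess), the split became 11 lower and 1 higher, where 4007 of all 17348 genes were lower and 4062 higher. Of 76 regions, 15 were lower and 4 higher in E12.5 FL (19.7% and 5.26%, against 26.4% and 23.1% of all regions, 49.4% in either direction), and 26 lower and 1 higher with those offsets, where 17863 of all 99005 tested regions were lower and 13447 higher. For genes and for regions, the Hox share called lower was thus below that of the whole table in the one fit and above it in the other. Of the 15 lower regions, 14 had a called peak in at least 1 E12.5 PL library and 3 in an E12.5 FL library; none of the 4 higher regions had a peak in either group.

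The region with the largest fold among those 15 lies 45519 bp outside Hoxb1, the hindbrain Hox gene at the anterior end of its cluster, at chr11:96413523-96414023. It held 26.5, 9.45 and 21.5 CPM in E12.5 PL but 0.453, 2.11 and 0.491 CPM in E12.5 FL. The fold was 18.3 (log2 change -4.20 ± 0.55 SE, edgeR adjusted p = 1.3e-08), and the groups did not overlap. In E16.5 FL it read 7.12, 3.25 and 5.62 CPM, and in the 17 marrow libraries 0 to 3.55 CPM. Peaks were called there in all 3 E12.5 PL libraries and in no other library. The gene-level call of Hoxb1 (18.9 ± 2.59 CPM in E12.5 FL and 33.6 ± 9.81 in E12.5 PL, mean ± SD, n = 3 each) rests on this region: with regions only within 10 kb, the log2 change of Hoxb1 turned to 0.64.

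At the Hoxa13 promoter printed above, the region chr6:52260637-52261538 measured 34.2, 29.5 and 28.2 CPM in E12.5 PL. It measured 9.28, 5.62 and 8.83 CPM in E12.5 FL, a 3.86-fold lower mean (log2 change -1.95 ± 0.29 SE, adjusted p = 2.7e-07). Hoxa13 acts in the distal limb and the genital tract. All other libraries lay at or below 11.2 CPM, so the 3 E12.5 PL libraries stood clear of the remaining 23. At the Hoxd10 promoter, chr2:74691510-74692010, the E12.5 PL libraries read 16.8, 9.23 and 11.1 CPM and those of E12.5 FL 3.62, 6.56 and 3.68. The start of Hoxd8, chr2:74704649-74706074, read 30.1, 30.2 and 27.8 CPM in E12.5 PL and 14.0, 15.7 and 14.7 in E12.5 FL (1.98-fold lower, adjusted p = 0.0019). Peaks were called at all 3 starts in every E12.5 PL library and in no E12.5 FL library.

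Other regions lower in E12.5 FL were the Hoxc10 region (1.90-fold, adjusted p = 6.7e-05) and the Hoxa11 promoter (2.89-fold, adjusted p = 0.0026). A pair at the lower-coordinate end of the Hoxb9 span was also lower (2.83-fold and 3.10-fold). Hoxb9 and Hoxa11 belong to the thoracic and the limb and kidney set of Hox genes. In the opposite direction, a Hoxb6 region at chr11:96300719-96301219 was 3.49-fold higher in E12.5 FL (7.13 ± 2.12 against 2.05 ± 1.58 CPM, adjusted p = 0.0018), with no peak in either group. Summed over regions, Hoxb6, Hoxc4 and Hoxc11 were higher in E12.5 FL by 1.59-fold, 1.49-fold and 2.63-fold. The Hoxc4 and Hoxc11 calls were lost with the loess offsets. Leaving out E12.5 FL 1, E12.5 FL 3 or E12.5 PL 1 left 4 Hox genes called in place of 8. The part of the marker difference between E12.5 PL and E12.5 FL in these results was not tested, and here as elsewhere fewer cells with an open region and less opening per cell cannot be told apart.

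**Figure D2:**
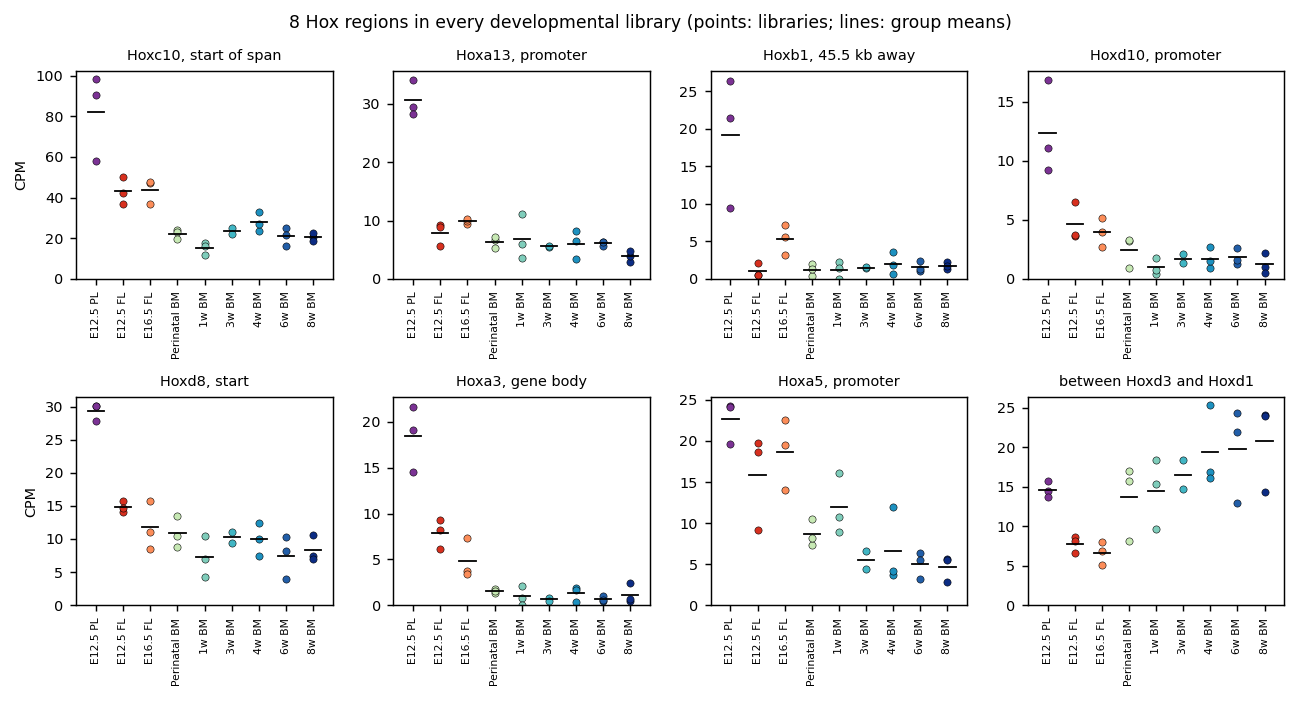
CPM of 8 Hox regions (y axis, linear from 0) in each of the 26 developmental libraries (points) by group (x axis), with group means as lines. E12.5 PL lies highest in 7 panels, while the region between Hoxd3 and Hoxd1 is lowest in the fetal liver groups and reaches 14.4 to 24.1 CPM in 8w BM.

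Between E12.5 FL and E16.5 FL no Hox gene and no Hox region passed edgeR's test or DESeq2. Across all features 0% of genes and 0.00101% of regions passed edgeR's test, so the lack of calls stands for the whole table and not for Hox alone. At an unadjusted edgeR p under 0.05 there were 2 of 32 Hox genes and 4 of 76 Hox regions. No share of all features is given at that threshold, so these counts are not read as a Hox signal. Hoxa9 read 39.7 ± 7.52 CPM in E12.5 FL and 39.9 ± 4.37 in E16.5 FL, and Hoxc10 read 51.7 ± 7.18 and 54.4 ± 5.69 (mean ± SD, n = 3 each).

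From E16.5 FL to Perinatal BM, 8 of 32 Hox genes were lower and none was higher, a share of 25% against 6.43% of all genes called lower. They were Hoxc10, Hoxb9, Hoxa5, Hoxc4, Hoxa13, Hoxb6, Hoxc12 and Hoxa11. No region of Hoxb9, Hoxc4, Hoxb6 or Hoxc12 had a called peak in either group, while the others had a peak in at least 1 library. Hoxb9 went from 47.0, 37.1 and 38.2 CPM to 20.7, 17.3 and 19.2 CPM (log2 change -1.10 ± 0.21 SE, adjusted p = 0.00069). Hoxa5, a gene of the lung and anterior trunk, went from 18.3, 26.9 and 24.1 CPM to 11.8, 8.07 and 9.18 CPM (log2 change -1.27 ± 0.33 SE, adjusted p = 0.0088). The median log2 change of the 32 genes was -0.59, and that of all genes tested -0.02. With the loess offsets only Hoxb9 and Hoxc10 were called. Without E16.5 FL 1 or without Perinatal BM 2, 3 genes were called. The 25% against 6.43% is from the main fit, and no share of all genes is given for these alternatives. The counts thus do not show whether the Hox share stayed above that of all genes.

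Among regions, 7 were lower and 1 was higher in Perinatal BM (9.21% and 1.32%, against 1.36% and 6.66% of all regions, 8.03% in either direction). With the loess offsets 2 were lower and none was higher, and 1 region passed without Perinatal BM 2, 3 without E16.5 FL 1, 4 without Perinatal BM 3 and 5 without E16.5 FL 2. Besides the Hoxc10, Hoxb1 and Hoxa5 regions, the lower ones were 3 regions of Hoxb9 and one inside Hoxa3. Of these 7 regions, 2 had a called peak in either group. No share of all regions is given for the loess offsets or the left-out libraries.

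The widest interval, from E12.5 FL to 8w BM, showed the same direction. It shares the E12.5 FL libraries with the comparison to E12.5 PL. Of 32 Hox genes 14 were lower in 8w BM and none was higher (43.8% lower, against 14.4% of all genes tested, with 15.4% of all genes higher and 29.8% in either direction). The loess offsets left 9 of the 14 (Hoxa3, Hoxa5, Hoxa13, Hoxb6, Hoxc6, Hoxc10, Hoxc12, Hoxc13 and Hoxd1), where 2132 of 17348 genes were called lower. Without 8w BM 2 also 9 were called, and without 8w BM 3, the library with the odd stage label, 16 were called.

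By cluster, HoxC had the most lower calls among gene sums: 6 of its 9 tested genes, with a median log2 change of -1.23, against 3 of 7 in HoxA (median -0.35), 2 of 9 in HoxB (-0.45) and 3 of 7 in HoxD (-0.72). Over regions HoxA had the most, 7 of 21 against 4 of 16 in HoxC, 4 of 15 in HoxD and 1 of 24 in HoxB, and with the loess offsets the genes were 4 in HoxC and 3 in HoxA. Whether the clusters differ in this was not tested. Hoxc6 fell from 6.42, 7.15 and 7.29 CPM to 2.86, 1.87 and 0.729 CPM, and Hoxc12 from 7.76, 9.72 and 6.12 to 3.08, 0.681 and 3.64 CPM. Hoxc13, known from hair and nail, fell 2.44-fold (adjusted p = 0.00093), Hoxc10 2.35-fold (6.5e-06), and Hoxc11 2.65-fold (0.045). Hoxc4, at the anterior end, fell 1.75-fold (0.0099). Of these 6 HoxC genes, only Hoxc10 had a called peak in E12.5 FL. In 8w BM only Hoxc10 and, in 1 library, Hoxc4 had one. Hoxc11 and Hoxc12 had no peak in any library, so their falls are changes in counts outside called peaks. Hoxa5 fell most within HoxA, from 23.3, 11.1 and 22.2 CPM to 3.08, 5.78 and 6.07 CPM (3.76-fold, log2 change -1.91 ± 0.35 SE, adjusted p = 7.8e-05).

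Hoxa13 fell from 29.2, 24.6 and 24.5 CPM to 7.70, 9.70 and 15.1 CPM (2.43-fold, adjusted p = 4.5e-05). Hoxa3, an anterior gene that is needed for the thymus and parathyroid, fell 1.60-fold with overlapping groups (adjusted p = 0.0047). Its sum joins 7 regions over a long span that also runs across Hoxa4, Hoxa5 and Hoxa6, so it is not the signal of Hoxa3 alone. In HoxB, Hoxb6 fell from 25.1 ± 2.26 to 12.7 ± 0.865 CPM and Hoxb9 from 33.6 ± 3.07 to 22.0 ± 4.06 CPM (mean ± SD, n = 3). In HoxD, Hoxd10 fell 4.29-fold to 1.35 ± 0.983 CPM (adjusted p = 0.0043), Hoxd1 2.47-fold (0.0012) and Hoxd8 2.00-fold (0.0088). By paralog number, 3 of 9 genes of numbers 1 to 4, 4 of 9 of numbers 5 to 8, and 7 of 14 of numbers 9 to 13 were lower.

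These falls have to be read beside a level-dependent shift of the whole table, in which the median of the weak regions fell. When all regions were split into quartiles by mean level, the median log2 change from E12.5 FL to 8w BM was -0.57, -0.24, 0.01 and 0.33 from the weakest to the strongest quartile. Of the 76 Hox regions 11, 29, 22 and 14 lay in these quartiles, and their medians were -1.19, -0.89, -0.36 and -0.13, each below that of all regions at the same level. Over regions, 16 of 76 were lower and 1 was higher (21.1% and 1.32%, against 5.7% and 10.7% of all regions, 16.4% in either direction). Without 8w BM 1, 8w BM 2 or E12.5 FL 1 these were 10, 8 and 10 lower. Of the 16 lower Hox regions 5 had a called peak in any library of either group. The part of the level-dependent shift in the remaining Hox difference was not tested beyond the loess offsets.

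**Figure D3:**
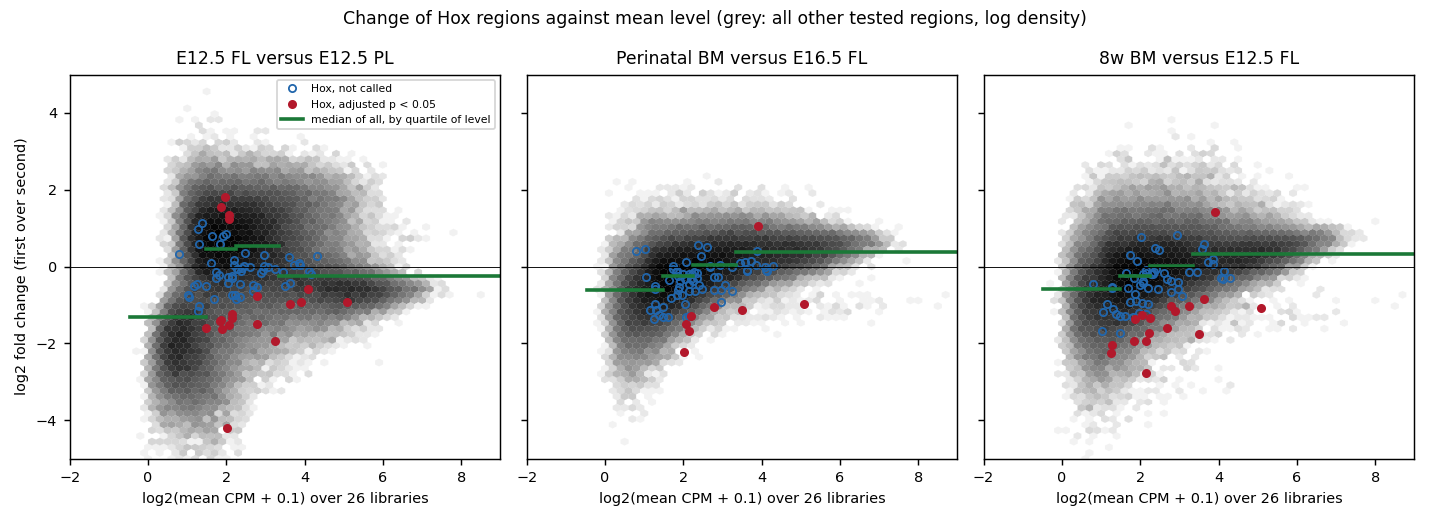
Log2 fold change (y axis) against log2(mean CPM + 0.1) over 26 libraries (x axis) for all tested regions (grey, log density) and Hox regions (blue open circles, not called; red, adjusted p under 0.05) in 3 comparisons. Green bars give the median of all regions by quartile of level; in the panel of 8w BM versus E12.5 FL they climb from -0.57 to 0.33, and most of the 16 lower Hox regions lie left of the strongest quartile.

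The called region with the largest fold between E12.5 FL and 8w BM lies in the body of Hoxa3. At chr6:52172422-52172942 the libraries read 21.6, 19.1 and 14.6 CPM in E12.5 PL, 8.15, 6.09 and 9.32 in E12.5 FL, 7.37, 3.75 and 3.42 in E16.5 FL and 0.409, 0.655 and 2.43 in 8w BM. The change from E12.5 FL to 8w BM was 6.89-fold (log2 change -2.79 ± 0.51 SE, adjusted p = 4.9e-05). Its level stepped down from E12.5 PL through fetal liver to marrow, where all libraries from Perinatal BM on lay at or below 2.43 CPM. At 2 neighbouring regions inside Hoxa3, the fall was 3.83-fold and 3.06-fold. At the Hoxa5 promoter, chr6:52203562-52204814, levels were 19.7, 9.13 and 18.6 CPM in E12.5 FL and 2.86, 5.57 and 5.52 CPM in 8w BM (3.37-fold lower, adjusted p = 9.5e-05).

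One Hox region moved the other way. It lies 1150 bp outside the span of Hoxd3, between Hoxd3 and Hoxd1, at chr2:74749149-74749693. It read 8.60, 6.56 and 8.10 CPM in E12.5 FL, 6.88, 8.00 and 5.13 in E16.5 FL, 8.13, 15.8 and 17.0 in Perinatal BM and 24.1, 23.9 and 14.4 in 8w BM. It was 2.07-fold higher in Perinatal BM than in E16.5 FL (adjusted p = 0.017), where 23.4% of all regions in its quartile of level, the strongest, were called higher. That call was lost in 7 of 13 alternatives: with the loess offsets (adjusted p = 0.19), total counts, these groups fitted alone, and without E16.5 FL 1, E16.5 FL 3, Perinatal BM 2 or Perinatal BM 3. It rose 2.69-fold from E12.5 FL to 8w BM (log2 change 1.43 ± 0.28 SE, adjusted p = 0.00013). The E12.5 PL libraries, with 14.4, 13.7 and 15.7 CPM, lay above fetal liver too. Peaks followed the counts: 3 of 3 E12.5 PL libraries, no fetal liver library, 2 of 3 in Perinatal BM and every library from 1w BM to 8w BM. The adjoining region, chr2:74749707-74750207, averaged 3.26 CPM in E12.5 FL against 3.05 in 8w BM, with no peak in any library.

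**Figure D4:**
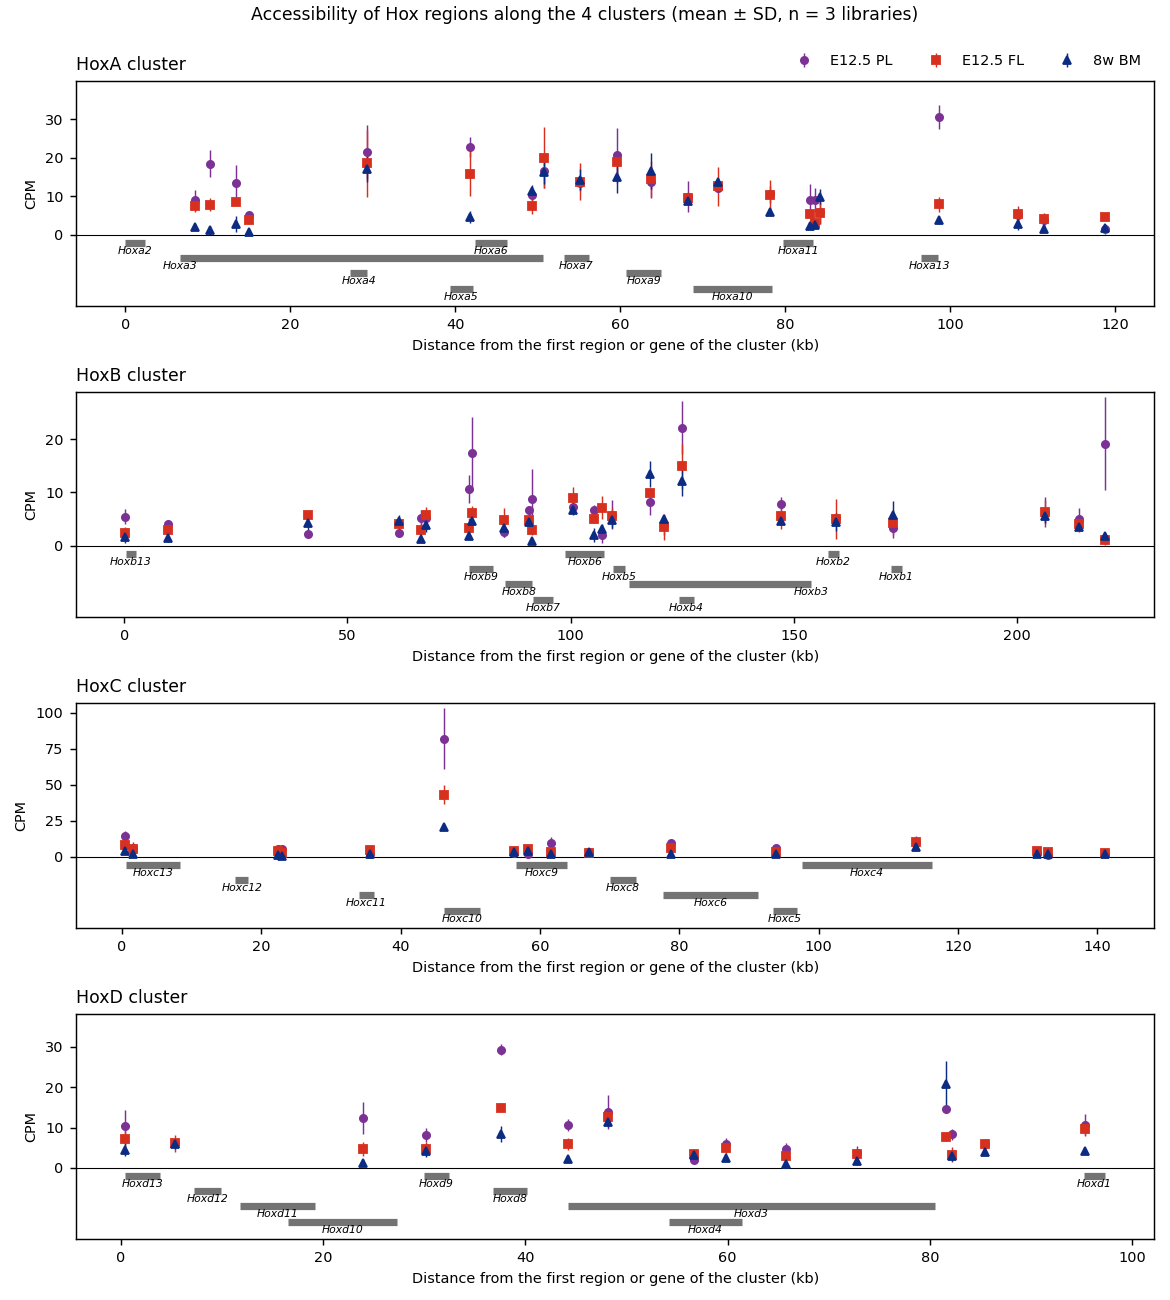
Mean CPM ± SD (y axis, n = 3 libraries) of Hox regions along each cluster (x axis, kb from the first region or gene) in E12.5 PL (circles), E12.5 FL (squares) and 8w BM (triangles), with gene spans as grey bars. E12.5 PL stands above the others at Hoxa13, Hoxc10, Hoxd8 and the far Hoxb1 region, the stretch from Hoxa7 to Hoxa10 overlaps between groups, and 8w BM is highest in the gap between Hoxd3 and Hoxd1.

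Within bone marrow few Hox genes or regions passed the test. No Hox gene or region separated 1w BM from Perinatal BM in edgeR or DESeq2. Of all genes 0.277% did in edgeR (0.259% lower), and of all regions 0.181% (0.148% lower). At an unadjusted edgeR p under 0.05 there were 1 of 32 Hox genes and 4 of 76 Hox regions, with no share of all features given. From 1w BM to 8w BM, Hoxa5 and Hoxa13 were lower (2 of 32 genes, 6.25%, against 0.617% of all genes lower, 0.744% higher and 1.36% in either direction). Hoxa5 read 9.28, 11.8 and 17.1 CPM in 1w BM and 3.08, 5.78 and 6.07 in 8w BM (2.60-fold, adjusted p = 0.033). Hoxa13 read 16.2, 17.3 and 22.7 CPM against 7.70, 9.70 and 15.1 (1.78-fold, adjusted p = 0.049). Of 76 regions 2 were lower, against 0.625% of all regions (1.27% in either direction). One was the Hoxa5 promoter region (2.61-fold, adjusted p = 0.018). The other, inside Hoxb4, chr11:96318340-96319500, was 1.82-fold lower at 8w (18.3, 19.6 and 27.7 CPM against 9.0, 13.9 and 13.5; adjusted p = 0.047). These calls rest on single libraries: no Hox gene or region was called without 1w BM 3 or without 8w BM 1, and no gene without 8w BM 2.

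The genes of the middle of HoxA, with the self-renewal genes Hoxa9 and Hoxa10, did not pass the test over the 9 groups. Hoxa9 had group means between 27.3 and 39.9 CPM over the 9 groups, Hoxa10 between 29.5 and 40.1, and Hoxa7 between 13.2 and 18.5. From E12.5 FL to 8w BM the log2 change was -0.24 for Hoxa9 (95% interval -0.61 to 0.14), -0.35 for Hoxa10 (-0.71 to 0.02) and -0.09 for Hoxa7 (-0.60 to 0.42). Each interval takes in 0, which does not show equality. Hoxb3 and Hoxd3, which did not pass over the 9 groups either, had log2 changes of 0.11 (-0.31 to 0.54) and -0.07 (-0.36 to 0.21). Hoxb4 did pass over the 9 groups, while its log2 change in this interval of age was -0.45 (-0.93 to 0.03). The Hoxd3 sum joins a region that rose (between Hoxd3 and Hoxd1) and one that fell (its promoter, 2.53-fold lower, adjusted p = 0.032).

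Some genes passed over the 9 groups but in no single comparison. Hoxb8 went from 18.1 ± 5.52 CPM in E12.5 PL and 15.0 ± 4.94 in E12.5 FL to 9.30 ± 1.72 in 8w BM, and Hoxb13 from 9.43 ± 0.964 and 6.39 ± 0.937 to 3.40 ± 2.12. Hoxc9 read 15.2 ± 0.0533 CPM in E12.5 FL and 10.3 ± 4.15 in 8w BM. From E12.5 FL to 8w BM their adjusted p were 0.066, 0.095 and 0.1, and those of Hoxd4 and Hoxc5 0.12 and 0.32. Of the members that passed nowhere in development, Hoxc8 had group means of 1.58 to 4.29 CPM, Hoxb5 of 3.39 to 6.63, Hoxb2 of 3.86 to 8.23 and Hoxd9 of 3.72 to 8.06. The means over all libraries were lowest for Hoxc11 (2.84 CPM), Hoxc5 (3.44), Hoxc8 (3.55), Hoxd10 (3.79), Hoxb13 (4.90) and Hoxc6 (4.94), so the folds of Hoxc11, Hoxd10 and Hoxc6 given above rest on few reads. Hoxd13, at the far end of its cluster, had group means between 10.5 and 16.4 CPM.

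Summed over a cluster, HoxA read 260 ± 51.8 CPM in E12.5 PL, 245 ± 52.8 in E12.5 FL, 207 ± 25.8 in Perinatal BM and 167 ± 22.4 in 8w BM. HoxC read 164 ± 7.32, 135 ± 11.7, 80.8 ± 8.64 and 65.9 ± 15.8 CPM in the same groups. In E16.5 FL the sums were 272 CPM for HoxA, the highest of the 9 groups, and 146 CPM for HoxC, so the sums did not fall at each step. The 8w BM sum was 0.487 of the E12.5 FL sum for HoxC, 0.682 for HoxA, 0.724 for HoxD and 0.744 for HoxB.

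Peak calls gave a picture that differs from the counts. In E12.5 FL 2 of the 76 Hox regions had a peak in every library and 65 had none, and in E16.5 FL these were 1 and 73. In E12.5 PL 9 regions had a peak in every library, in 3w BM 17 and in 8w BM 8. The 3w BM group has 2 libraries, so a peak in every library asks less there. With at least 50% of the region overlapped, the numbers were 4 in E12.5 PL, 0 in E12.5 FL, 3 in 3w BM and 3 in 8w BM, and E12.5 PL then stood above 3w BM. All libraries were counted over the same regions, so a region has reads also where no peak was called. The share of regions with a peak also varied by library over the whole table: 8.90% to 21.8% in fetal liver, 22.9% to 33% in E12.5 PL and 22.2% to 47.3% in marrow. In E12.5 PL the Hox share (23.7% to 28.9%) was close to that of all regions. It was below it in every fetal liver library, at 1.32% to 10.5%, and in every marrow library. A peak in E12.5 PL and nowhere else was seen at 11 Hox regions, among them those of Hoxd10, Hoxb9 and the far Hoxb1 region. A peak in every library of at least 1 marrow group but in no fetal liver library was seen at 9, among them regions of Hoxa9, Hoxa10, Hoxb6 and Hoxb3. At 18 Hox regions no library had a peak. No share of all regions is given for these patterns or for a peak in every library of a group. Fetal liver libraries had fewer peaks over the whole table, so these counts are not shown to be particular to Hox.

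**Figure D5:**
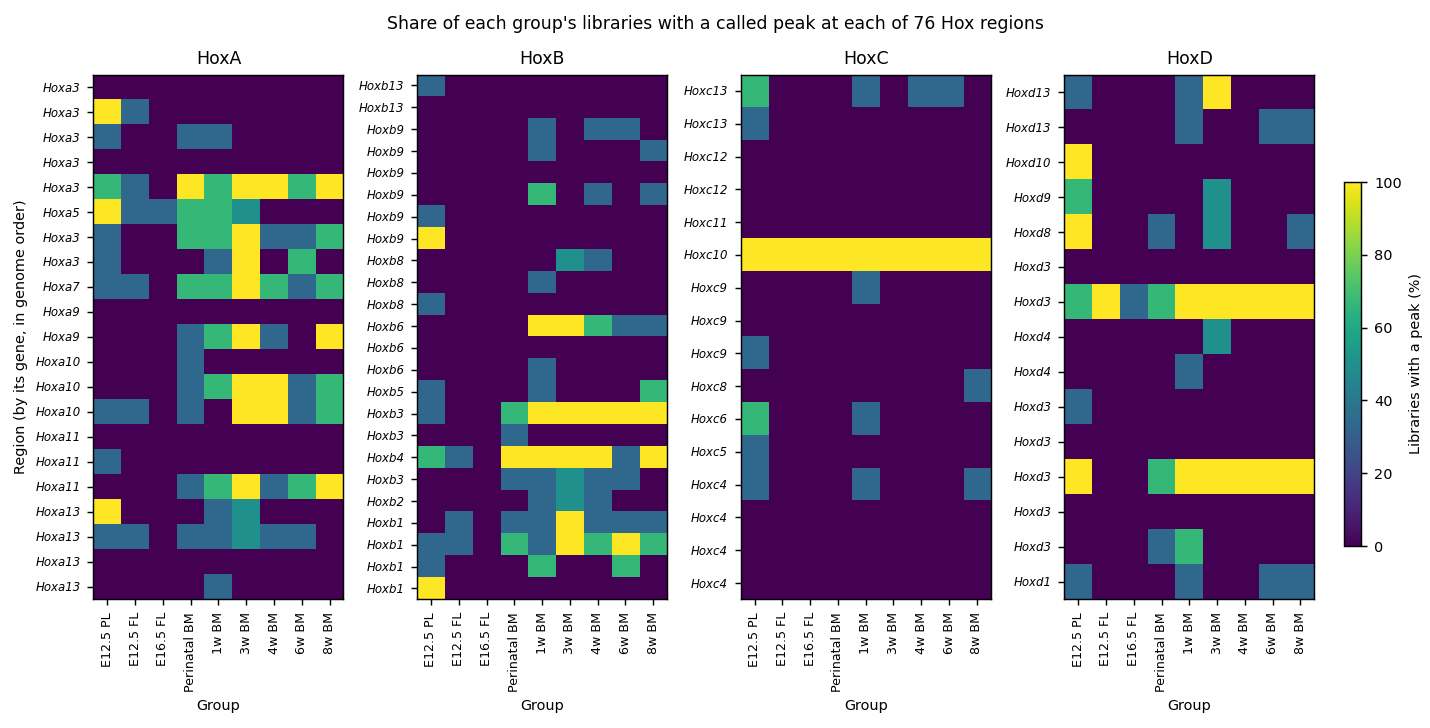
Share of each group's libraries (columns) with a called peak at each of the 76 Hox regions (rows, named by gene, in genome order within each cluster); yellow is 100% and dark purple 0%. The Hoxc10 row is yellow in all groups, the fetal liver columns are nearly empty, and separate rows are yellow in E12.5 PL (Hoxa13, Hoxb1, Hoxd10) and in marrow (Hoxb3, Hoxb4, Hoxd3).

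The partners and regulators of Hox genes, and the neighbours of the clusters, were taken from lists of names. Among the cofactor genes reported here, Meis2 (log2 change -0.81) and Pknox2 (-0.56) were lower in 8w BM than in E12.5 FL, and Pbx4 (0.35) was higher. Of all genes 14.4% were lower and 15.4% higher. The calls over the cofactor list are not counted, as a member of it is not reported, so these names do not give its balance of directions. Meis1, the cofactor best known in blood stem cells, had a log2 change of 0.09 in the same interval (adjusted p = 0.54). Of 30 upstream regulators 12 passed in that interval, 7 lower and 5 higher, where 29.8% of all genes passed (14.4% lower and 15.4% higher). They included Kdm6b, a demethylase that opposes Polycomb (0.81), Cdx2, a homeobox activator of Hox genes (-0.86), Cbx2, a Polycomb subunit (-0.66), and Rarb, a retinoic acid receptor (-0.47). Between E12.5 FL and E12.5 PL, 11 of 30 regulators passed, a smaller share than the 49.5% of all genes. Of these 10 were lower in E12.5 FL (23.5% of all genes were), among them the Polycomb genes Bmi1 (-0.91) and Ezh2 (-0.65), Kdm6b (-0.81) and the receptor Rarg (-0.89).

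Of 33 genes beside the clusters 32 were tested, and 7 passed from E12.5 FL to 8w BM, 4 lower and 3 higher, a smaller share than the 29.8% of all genes. Igf2bp1, an RNA-binding protein gene next to HoxB, had the largest change (-2.30 ± 0.25 SE on the log2 scale, adjusted p = 7.8e-09). Nfe2l2 beside HoxD (0.61), Smug1 beside HoxC (-0.61) and Lnpk beside HoxD (0.54) followed. The median log2 change of the flanking genes was -0.13, that of the Hox genes -0.69 and that of all genes -0.02.

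In culture, 1 Hox gene and no Hox region separated the media after 2 h. Of 36 Hox genes 1 was lower in co-SHI and none was higher (2.78%, against 2.12% of all genes lower, 4.68% higher and 6.8% in either direction). It was Hoxb2, a hindbrain gene, with 16.4, 12.9 and 14.7 CPM in SHI and 9.06, 10.4 and 10.6 in co-SHI (1.47-fold lower, log2 change -0.56 ± 0.16 SE, adjusted p = 0.038). The groups did not overlap, but the call was lost when any library other than co-SHI 3 was left out. Of the 110 Hox regions none passed edgeR's test or DESeq2, where 0.56% of all regions passed edgeR's test (0.228% higher). At an unadjusted edgeR p under 0.05 there were 9 of the 110, and no share of all regions is given at that threshold. Without co-SHI 3, 1 Hox region was called. The cluster sums were 244 ± 17.6 CPM in SHI and 230 ± 11.9 in co-SHI for HoxA, 164 ± 2.53 and 147 ± 6.31 for HoxB, 126 ± 19.8 and 124 ± 3.75 for HoxC, and 105 ± 3.53 and 94.0 ± 1.05 for HoxD (mean ± SD, n = 3 each). HoxB and HoxD sums did not overlap between the groups; these sums were not tested. The co-SHI libraries were deeper (14280440 to 20092146 reads in regions) than the SHI libraries (7512258 to 11655458), and the part of depth was not tested.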

How the data were processed

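ATAC-seq libraries of C57BL/6 LSK cells (26 developmental, 6 cultured) were analysed from the deposited files. Per the labels' protocols, 10 PCR cycles followed the Tn5 reaction. Tools listed in the submitters' processing notes are Trim Galore, HOMER, DiffBind, MACS2 and deepTools, with build mm10. Aligner, settings, Tn5 shift and removal of duplicates could change the values and are not given in the sources used here. The deposited tables hold raw counts per region, made by the authors with no scaling. Each library has its own deposited peak list with a score, a fold enrichment ratio, and −log10 p and −log10 q; an overlap of 1 base marked a region as having a peak. 3 uncultured columns of the cultured table were not used.

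Regions were assigned to RefSeq spans of GRCm38.p6, the same assembly as mm10. Where spans overlapped the shortest was taken. No strand or exon positions were used, so exon, intron and UTR were not told apart, and antisense and non-coding genes of the clusters were not counted. Gene values are sums over regions.

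Counts were filtered with filterByExpr (minimum 10), scaled by TMM and tested by the two-sided quasi-likelihood test of edgeR 4.0.16 (R 4.3.3) with 9 group means in 1 fit; the 6 cultured libraries were fitted alone. P-values were adjusted by Benjamini-Hochberg over the whole table, at 0.05. The code was tested on simulated data. Alternatives were DESeq2 1.42.0, its size factors, total counts, loess offsets (limma 3.58.1), no filter, a replicate block, a 10 kb limit, the groups compared alone, the table without E12.5 PL, and leaving out each library. No libraries were merged, since replicates differed beyond counting noise. Intervals cover 95% by a normal approximation. The text names every Hox gene with an adjusted p under 0.05 in any of 8 comparisons, and per comparison the regions with the smallest p. The members and lists were chosen with earlier results of these data known. Python 3.11.15, pandas 2.3.3, numpy 2.4.6 and matplotlib 3.10.9 made the tables and plots. One cofactor gene is not reported here.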

Additional observations from a re-analysis of the deposited data

How the results depend on the processing

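The direction of the called Hox genes and regions held under all alternatives run but one: with regions only within 10 kb, Hoxb1 between E12.5 FL and E12.5 PL turned from a log2 change of -0.83 to 0.64. Of the remaining values of called genes 1108 stayed past the threshold and 100 did not. For called regions these were 1817 and 162. Both totals include the test over all 9 groups, which has no direction and more alternatives per call. Calls of the single comparisons were lost in a larger share of their alternatives than these totals show. With cyclic loess offsets, 9 genes were called between 8w BM and E12.5 FL, 2 genes and 2 regions between Perinatal BM and E16.5 FL, and 1 gene and 1 region between 8w BM and 1w BM. In that last comparison 1 gene was called with total counts and 1 with regions within 10 kb. DESeq2 called 5 regions between Perinatal BM and E16.5 FL. Without the E12.5 PL libraries 26 Hox regions were called over all groups, with no share of all regions given.

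Leaving out one library at a time gave these ranges. Over all groups 19 to 23 genes and 38 to 44 regions were called. Between E12.5 FL and E12.5 PL there were 4 to 9 genes and 14 to 18 regions, between Perinatal BM and E16.5 FL 3 to 9 and 1 to 7, between 8w BM and 1w BM 0 to 2 and 0 to 2, between 8w BM and E12.5 FL 9 to 16 and 9 to 19, and between co-SHI and SHI 0 to 1 and 0 to 1. The lowest region counts came without Perinatal BM 2 (1), without 8w BM 2 (9) and without 1w BM 3 or 8w BM 1 (0).

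The replicate numbers were not taken as pairing: deviations of same-numbered developmental libraries correlated at a median r of 0.011 (-0.098 to 0.17, with 5 of 100 pairs over 0.1), although 19 of 26 libraries correlated more with their own number. In culture the median r was 0.045 (-0.02 to 0.062 over 3 pairs), with 4 of 6. With a replicate block, the co-SHI versus SHI gene count went from 1 to 0 (Hoxb2), Hox genes lower in 8w BM than in E12.5 FL from 14 to 15, and regions called between Perinatal BM and E16.5 FL from 8 to 10. Depth limits the weak regions, where a level near 1 CPM is a handful of reads in the shallower libraries.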
